A study of Homo sapiens with 9 samples.

Results

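The genes described here are 52 members of the cell cycle machinery, taken by symbol from the 61209 genes of the count table: 24 act around entry into and passage through S phase, 27 act in G2 and mitosis, and the last, CCNG2, is a cyclin of arrested cells. They were chosen by function, but with earlier results of these data known. All 52 were among the 16976 genes with enough counts to test. They were measured by bulk RNA-seq in T1, a human gastrointestinal stromal tumor (GIST) cell line with an activating deletion in exon 11 of KIT, in 3 groups of 3 libraries. The siERRα group received siRNA against ESRRA, which encodes the orphan nuclear receptor ERRα; the imatinib group received non-target siRNA and, by the methods of the study, 50 nM of the KIT inhibitor imatinib; and the siNC group received non-target siRNA alone. All 9 libraries come from transfected cells of this single line harvested 48 h after transfection, and the titles of the imatinib libraries also carry 48 h. The imatinib libraries are numbered S16 to S18, and those of the other groups S1 to S6. Whether they were handled apart is not stated, and such a difference could not be told from the drug in contrasts with imatinib libraries. No source says whether replicate libraries stem from independent cultures, and the p-values therefore cover only the spread among these libraries, which may be technical.

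Cells enter S phase when cyclin-CDK complexes inactivate RB and its relatives and release E2F transcription factors, whose targets load the MCM helicase on origins and supply nucleotides. In G2, the MuvB complex with MYBL2 and FOXM1 switches on a later set of genes, which build the spindle, drive entry into mitosis and check chromosome attachment. In arrested cells the DREAM complex holds both sets down, through E2F sites in promoters of the first set and through the cell cycle homology region (CHR) in promoters of the second. In GIST cells, KIT signaling is a known driver of proliferation.

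ESRRA was at 1.4, 0.757 and 1.34 counts per 1000000 counts (CPM) in the siERRα libraries, 30.4, 32 and 35.6 CPM in the imatinib libraries and 40.7, 44.7 and 40.9 CPM in the siNC libraries. The knockdown libraries were low, as labelled, and ESRRA was also lower with imatinib than in siNC (log2 fold change −0.37, adjusted p = 0.00383 from edgeR). The libraries held 37527236 to 49363002 counts, with 0.943 to 1.03% of them from mitochondrial genes in siERRα, 1.48 to 1.54% in imatinib and 0.846 to 0.989% in siNC libraries. KIT was abundant in each group, at a mean of 1366 CPM in siERRα, 1526 CPM in imatinib and 1305 CPM in siNC, and the leukocyte gene PTPRC was at or near 0. Within their groups, siERRα library 2, imatinib library 1 and siNC library 2 stood apart. The chi-square per degree of freedom between the counts of replicate libraries was 16.4 and 13.7 for siERRα library 2 against its replicates, beside 4.32 for the other pair. It was 14.2 and 10.8 for imatinib library 1, beside 7.73, and 9.53 and 6.81 for siNC library 2, beside 3.77. In siERRα library 2, log2 levels of 2721 genes with at least 8 kb of annotated exons, set against 714 genes with at most 2 kb, were 0.122 above its group mean, compared with −0.079 to 0.065 in the other 8 libraries.

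With imatinib, most S-phase members rose, and more mitotic members fell than rose. Of the 24 S-phase members, 21 rose and 0 fell (87.5% higher, beside 21.4% of all genes tested), with a median log2 fold change of 0.49. Of the 27 mitotic members, 11 fell (40.7%, beside 20.3% of all genes tested), 2 rose and 14 were not called, with a median of −0.11. After ERRα knockdown, 14 mitotic members rose and 0 fell (51.9% higher, beside 11.4% of all genes tested), with a median of 0.22. The S-phase members did not share a direction in the knockdown: 4 rose and 5 fell (20.8% lower, beside 12.6% of all genes tested), with a median of 0.01. The median over all genes tested was 0.009 for the knockdown and 0.002 for imatinib. Taken without sign, the median change of all genes tested was 0.17 for the knockdown and 0.25 for imatinib. A call is an adjusted p under 0.05 from edgeR's quasi-likelihood test, adjusted over all genes tested, and each log2 fold change below is against siNC with its standard error (SE) unless stated otherwise. These are bulk libraries, so fewer cells in a phase and less RNA per cell cannot be told apart, and the 2 contrasts share the siNC libraries. The knockdown changes were small: of the 14 mitotic calls, 2 reached a log2 fold change of 0.5, and 9 members were called higher without siNC library 3. Without imatinib library 1, 21 S-phase members rose and 13 mitotic members fell with imatinib.

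**Figure D1:**
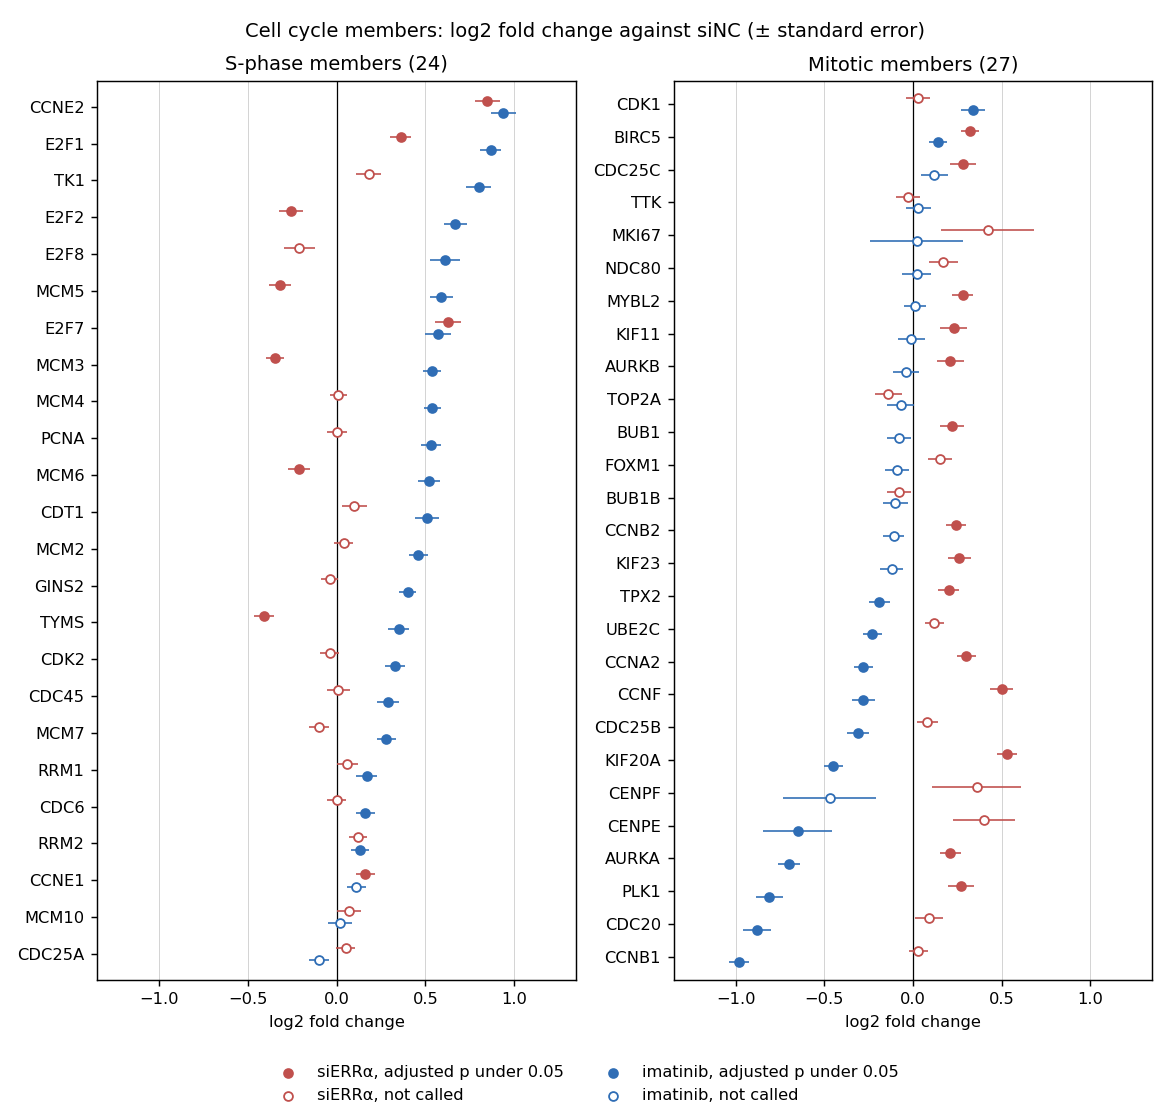
Log2 fold change against siNC (x axis, ± SE) of each S-phase member (left) and mitotic member (right), for siERRα (red) and imatinib (blue), ordered by the imatinib value. Filled points have an adjusted p under 0.05; the blue points of 21 S-phase members are filled and right of 0, and 14 red points of mitotic members are filled and right of 0.

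Most promoters of the S-phase members carry letters that E2F factors bind. The members were chosen as S-phase, E2F target and mitotic genes, so a high share of E2F cores partly follows from that choice. In RefSeq windows of 250 bases before to 50 bases after the gene start (GRCh38.p14), which the table holds for 41 of the 52 members, an E2F core (TTCCCGC, or else TTCGCGC, or else TTGCCGC, or else TTGGCGC, on either strand) was found in 14 of 19 S-phase promoters (73.7%) and 4 of 21 mitotic promoters (19.0%). The same letters occur in 13.1% of 27305 promoters and in 20.4% of the 11277 promoters of genes tested here. The windows of E2F1 (chr20:33686336-33686635, minus strand), MCM3 (chr6:52284693-52284992, minus strand) and MCM6 (chr2:135876394-135876693, minus strand) are shown because these genes rose with imatinib and differed in direction after knockdown. Capitals mark E2F cores and CHR letters, 5′ to 3′ along the gene.
E2F1: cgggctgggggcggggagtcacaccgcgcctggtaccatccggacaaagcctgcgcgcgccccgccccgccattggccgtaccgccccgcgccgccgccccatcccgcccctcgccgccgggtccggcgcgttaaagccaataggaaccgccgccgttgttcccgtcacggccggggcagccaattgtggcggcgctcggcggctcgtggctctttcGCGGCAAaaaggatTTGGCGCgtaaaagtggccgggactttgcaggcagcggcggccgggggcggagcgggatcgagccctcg
MCM3: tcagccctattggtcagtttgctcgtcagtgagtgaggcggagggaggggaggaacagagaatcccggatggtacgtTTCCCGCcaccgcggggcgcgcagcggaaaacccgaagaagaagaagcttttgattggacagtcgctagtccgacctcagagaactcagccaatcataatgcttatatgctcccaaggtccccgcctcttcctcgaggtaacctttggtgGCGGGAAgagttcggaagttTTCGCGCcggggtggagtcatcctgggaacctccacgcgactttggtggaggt
MCM6: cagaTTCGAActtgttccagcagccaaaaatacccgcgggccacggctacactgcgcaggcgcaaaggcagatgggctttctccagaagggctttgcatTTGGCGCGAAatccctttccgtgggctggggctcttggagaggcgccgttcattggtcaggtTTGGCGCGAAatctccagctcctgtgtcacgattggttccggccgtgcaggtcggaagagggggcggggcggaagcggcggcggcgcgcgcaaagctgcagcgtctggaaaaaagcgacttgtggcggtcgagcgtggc
E2F1 holds 2 cores close to its start, MCM3 holds 3, and MCM6 holds 2 pairs in which a core on each strand overlaps the other, besides a CHR match (TTCGAA) at the far end. A match is a string of letters, not a measured binding site.

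The E2F factors themselves were among the members that changed most with imatinib, where all 4 rose (beside 21.4% of all genes tested). E2F1, an activator of S-phase genes, was at 165, 147 and 164 CPM in siERRα, 226, 215 and 237 CPM in imatinib and 119.7, 126 and 124 CPM in siNC libraries. Its 3 groups did not overlap: it rose 1.83-fold with imatinib (log2 fold change 0.87, SE 0.0594, adjusted p = 1.41e-09) and 1.28-fold after knockdown (0.36, SE 0.0592, adjusted p = 0.000165). E2F2, a second activator, was at 33.3, 31.6 and 33.6 CPM in siERRα, 66.8, 58 and 62.4 CPM in imatinib and 37.7, 39.7 and 40.4 CPM in siNC libraries. It moved in opposite directions, 0.67 with imatinib (adjusted p = 2.01e-07) and −0.26 after knockdown (adjusted p = 0.00825). E2F7 and E2F8 are atypical members of the family that repress E2F targets. E2F7 averaged 30.8 ± 1.33 CPM in siERRα, 29.6 ± 1.65 CPM in imatinib and 19.9 ± 1.22 CPM in siNC (SD, n = 3 each), and rose in both (0.63, adjusted p = 3.8e-06, and 0.57, adjusted p = 4.85e-06). E2F8 rose with imatinib (0.61, adjusted p = 9.12e-06), and its value after knockdown was −0.21 (adjusted p = 0.0863).

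Cyclin E, the partner that activates CDK2 at the start of S phase, has 2 genes here. CCNE2 was at 47.5, 56.7 and 53.9 CPM in siERRα, 56.5, 54.7 and 56.9 CPM in imatinib and 29.3, 27.6 and 30.5 CPM in siNC libraries. Every siERRα and imatinib library lay above every siNC library, and CCNE2 had the largest rise of any member in both contrasts (0.85, SE 0.0716, adjusted p = 6.12e-08 after knockdown, and 0.94, SE 0.0719, adjusted p = 6.14e-09 with imatinib). CCNE1 was far more abundant and moved little: 266 ± 6.6 CPM in siERRα, 257 ± 13.8 CPM in imatinib and 238 ± 2.67 CPM in siNC (SD, n = 3 each). Its rise after knockdown (0.16, adjusted p = 0.0336) lost its call under 7 alternatives, which include leaving out siERRα library 1 or 3 or any siNC library (adjusted p = 0.0571 to 0.162). With imatinib CCNE1 was at 0.11 (adjusted p = 0.109), and was called higher without imatinib library 2 (0.15, adjusted p = 0.0365). CDK2 rose with imatinib (0.33, adjusted p = 8.58e-05). CDC25A, the phosphatase that activates CDK2, was called in neither contrast (0.05 after knockdown and −0.10 with imatinib).

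**Figure D2:**
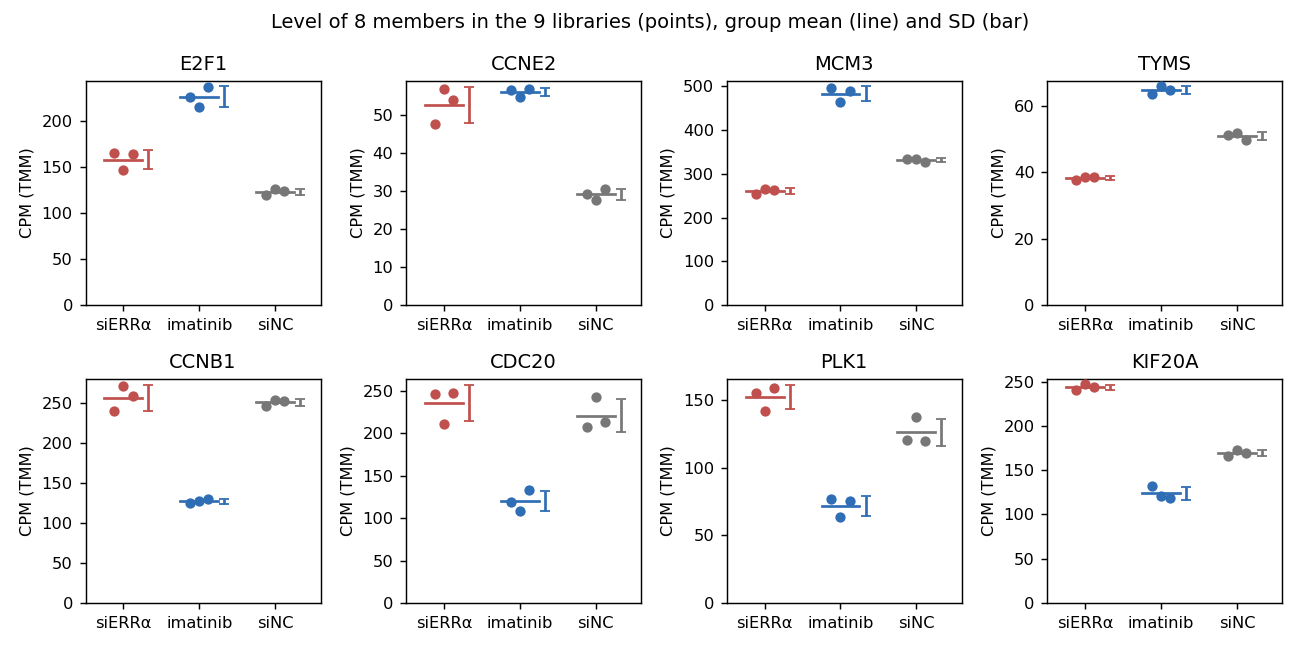
Level in CPM (y axis from 0, scaled by TMM) of 4 S-phase members (top row) and 4 mitotic members (bottom row) in the libraries of siERRα, imatinib and siNC. Points are libraries, lines are group means and bars are SD; MCM3 and TYMS are lowest in siERRα and highest in imatinib, whereas KIF20A is highest in siERRα and lowest in imatinib.

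Of 11 origin licensing and helicase genes, 10 rose with imatinib (90.9%, beside 21.4% of all genes tested), with a median of 0.46. MCM2 to MCM7 encode the ring-shaped helicase loaded on origins. MCM3 was at 253, 266 and 262 CPM in siERRα, 497, 465 and 489 CPM in imatinib and 335, 334 and 327 CPM in siNC libraries. The 3 groups were fully apart, with imatinib at the top and siERRα at the bottom (0.54, adjusted p = 8.26e-08 with imatinib, and −0.35, adjusted p = 4.25e-05 after knockdown). MCM5 followed the same order, at 160.1, 152 and 168 CPM in siERRα, 300.3, 283 and 316 CPM in imatinib and 187, 217 and 195 CPM in siNC libraries (−0.32, adjusted p = 0.00108 after knockdown, and 0.59, adjusted p = 5.73e-07 with imatinib). MCM6 averaged 137 ± 13.1 CPM in siERRα, 228 ± 5.19 CPM in imatinib and 159 ± 1.96 CPM in siNC (SD, n = 3 each). Its fall after knockdown (−0.21, adjusted p = 0.0178) was not called without siERRα library 1 or siNC library 1 (adjusted p = 0.0633 to 0.117).

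The rest of the helicase ring rose with imatinib, and none was called after knockdown. The imatinib values were 0.46 for MCM2, 0.54 for MCM4 and 0.28 for MCM7, and the knockdown values were 0.04, 0.01 and −0.10 for the same genes in turn. CDT1, which brings the ring to origins, rose by 0.51 with imatinib (adjusted p = 8.4e-06), at 172 ± 14.8 CPM against 121 ± 8.18 CPM in siNC (SD, n = 3 each). Its partner CDC6 rose by only 0.16 (adjusted p = 0.0242), and this call was lost without imatinib library 3 or any siNC library, and with no filter on low counts (adjusted p = 0.0638 to 0.0937). GINS2 and CDC45, which join the ring to make the working helicase, rose with imatinib by 0.40 (adjusted p = 3.38e-06) and 0.29 (adjusted p = 0.000925). MCM10, which helps to fire the assembled helicase, was the member of this role with no call, at 0.07 after knockdown and 0.02 with imatinib.

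All 5 members for the replication clamp and nucleotide supply rose with imatinib, beside 21.4% of all genes tested. TK1, which salvages thymidine, was at 791, 686 and 834 CPM in siERRα, 1165, 1178 and 1213 CPM in imatinib and 646, 750.1 and 650.3 CPM in siNC libraries. The imatinib libraries were above all others (0.80, SE 0.0699, adjusted p = 3.7e-08), while the siERRα and siNC libraries overlapped (0.18, adjusted p = 0.0767). TK1 was called higher after knockdown without siERRα library 2 (0.25, adjusted p = 0.00401), without siNC library 2 (0.24, adjusted p = 0.0227) and with no filter on low counts (0.18, adjusted p = 0.0254). TYMS, which makes thymidylate anew, was at 37.6, 38.7 and 38.5 CPM in siERRα, 63.6, 66 and 64.7 CPM in imatinib and 51.1, 51.8 and 49.6 CPM in siNC libraries. Its libraries agreed closely within each group, and TYMS had the largest fall of any member after knockdown (−0.41, SE 0.0586, adjusted p = 3.92e-05), with a rise under imatinib (0.35, adjusted p = 7.74e-05). PCNA, the sliding clamp of DNA polymerases, averaged 222 ± 14.9 CPM in siERRα, 321 ± 9.96 CPM in imatinib and 222 ± 6.06 CPM in siNC (SD over 3 libraries), and rose by 0.53 with imatinib (adjusted p = 5.06e-07). With imatinib, the subunits of ribonucleotide reductase changed least of the 5. RRM1 rose by 0.17 with imatinib (adjusted p = 0.025), not called without siNC library 2 or 3 (adjusted p = 0.0537 to 0.0775). RRM2 rose by 0.13 (adjusted p = 0.0463), and 9 alternatives ended that call, the omission of siERRα library 1 or 3, imatinib library 3 or any siNC library among them (adjusted p = 0.053 to 0.184). Their values after knockdown were 0.06 for RRM1 and 0.12 for RRM2, without a call.

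Promoters of the mitotic members differ from those of the S-phase set in the letters they hold. The mitotic members were also chosen by function, so a high share with the CHR may partly follow from that choice. The CHR (TTTGAA, or else TTCGAA, on either strand) was found in 13 of 21 mitotic promoters (61.9%) and 2 of 19 S-phase promoters (10.5%), beside 16.6% of all promoters and 11.5% of those of genes tested. The CCAAT box, bound by NF-Y, was common in both sets (71.4% of mitotic and 68.4% of S-phase promoters, beside 36.2% of genes tested). An ERR response element (TNAAGGTCA on either strand) was in 0 of the members' windows and in 0.505% of those of genes tested. At so low a share, 0 matches in this few windows cannot tell the members from other genes. Sequence outside the windows was not searched. Mitotic promoters with a CHR were found among genes that rose after knockdown (6 of 11 in the table) and among those not called (7 of 10). With imatinib, the CHR was in 9 of 12 not called, in 1 of 1 that rose and in 3 of 8 that fell. The windows of PLK1 (chr16:23678639-23678938, plus strand), CDC20 (chr1:43358731-43359030, plus strand) and CCNF (chr16:2429197-2429496, plus strand) are shown as the 3 of those 8 with the CHR letters, again in capitals.
PLK1: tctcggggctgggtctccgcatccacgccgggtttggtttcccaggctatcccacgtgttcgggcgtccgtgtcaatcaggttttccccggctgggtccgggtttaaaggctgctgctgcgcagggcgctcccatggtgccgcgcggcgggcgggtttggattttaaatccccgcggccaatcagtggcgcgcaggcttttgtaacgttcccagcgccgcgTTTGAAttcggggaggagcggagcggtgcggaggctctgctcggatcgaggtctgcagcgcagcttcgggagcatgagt
CDC20: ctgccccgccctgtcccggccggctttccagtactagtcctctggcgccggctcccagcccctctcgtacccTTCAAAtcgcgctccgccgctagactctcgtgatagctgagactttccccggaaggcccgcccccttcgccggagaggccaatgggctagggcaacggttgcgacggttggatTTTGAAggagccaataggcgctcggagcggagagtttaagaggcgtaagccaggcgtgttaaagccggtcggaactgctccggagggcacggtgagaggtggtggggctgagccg
CCNF: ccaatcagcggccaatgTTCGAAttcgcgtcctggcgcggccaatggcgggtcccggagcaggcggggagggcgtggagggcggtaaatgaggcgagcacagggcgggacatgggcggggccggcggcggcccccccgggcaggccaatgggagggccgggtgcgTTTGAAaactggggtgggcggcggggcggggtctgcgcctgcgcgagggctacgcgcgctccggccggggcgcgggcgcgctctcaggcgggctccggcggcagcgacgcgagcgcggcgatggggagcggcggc
PLK1 has a single match close to its start, and CDC20 and CCNF have 2 each. CCNB1, which fell most with imatinib, held no CHR match in its window but an E2F core.

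**Figure D3:**
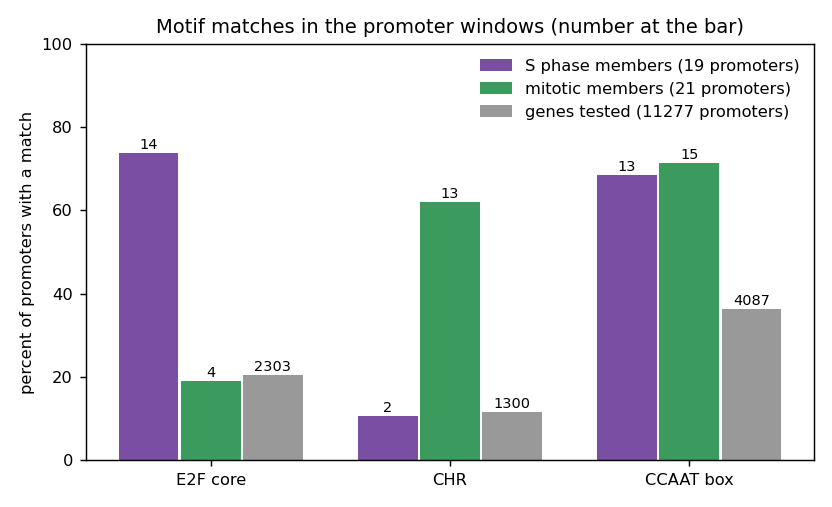
Percent of promoter windows (y axis) with at least 1 match to the E2F core, the CHR or the CCAAT box, for S-phase members (purple), mitotic members (green) and all genes tested (grey), with the number of promoters above each bar. The E2F core is in 14 of 19 S-phase windows and the CHR in 13 of 21 mitotic windows. The members were chosen to include E2F target and mitotic genes.

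CCNB1 and CDC20 had the largest falls of any member with imatinib. CCNB1 encodes cyclin B1, the main partner of CDK1 in mitosis. It was at 240.2, 272 and 259 CPM in siERRα, 125, 128 and 129.6 CPM in imatinib and 247, 254 and 253 CPM in siNC libraries. The imatinib libraries were all near a mean of 127 CPM, while the siERRα and siNC libraries overlapped (−0.98, SE 0.0557, adjusted p = 1.37e-10 with imatinib, and 0.03, adjusted p = 0.713 after knockdown). CDC20, which activates the anaphase-promoting complex (APC/C), showed the same layout, at 247, 211 and 248 CPM in siERRα, 119, 109 and 133 CPM in imatinib and 207, 243 and 213 CPM in siNC libraries (−0.88, adjusted p = 5.7e-08 with imatinib). UBE2C, the ubiquitin-conjugating enzyme of that complex, fell by less (−0.23, adjusted p = 0.00268), and its value after knockdown was 0.12 (adjusted p = 0.11). CDC25B, a phosphatase that activates CDK1, also fell with imatinib (−0.31, adjusted p = 0.000435) and was at 0.08 after knockdown (adjusted p = 0.355).

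Of the 27 mitotic members, 6 had opposite calls in the 2 contrasts, higher after knockdown and lower with imatinib. The share of all genes tested with this pair of calls was not counted. Taken singly, 11.4% of all genes tested were higher after knockdown and 20.3% were lower with imatinib. PLK1, a kinase needed for spindle assembly and mitotic entry, was at 155, 142 and 159 CPM in siERRα, 76.4, 63.1 and 75.2 CPM in imatinib and 120.3, 137 and 119.7 CPM in siNC libraries. It fell by 0.81 with imatinib on the log2 scale (SE 0.0755, adjusted p = 7.81e-08) and rose by 0.27 after knockdown (adjusted p = 0.0108). The knockdown call of PLK1 was lost without siERRα library 3, siNC library 1 or siNC library 3 (adjusted p = 0.0536 to 0.0863). KIF20A, a kinesin of the central spindle and cytokinesis, had the smallest adjusted p of the mitotic members after knockdown, at 241, 247 and 244 CPM in siERRα, 132, 121 and 119 CPM in imatinib and 166, 173 and 169.8 CPM in siNC libraries. Its groups did not overlap (0.53, SE 0.0543, adjusted p = 9.25e-07 after knockdown, and −0.45, adjusted p = 2.19e-06 with imatinib). CCNF, an F-box protein that directs ubiquitination in G2, was at 146, 139.9 and 148 CPM in siERRα, 88.5, 74.6 and 89 CPM in imatinib and 98.3, 106 and 101 CPM in siNC libraries. It too was highest in every siERRα library and lowest in every imatinib library (0.50, adjusted p = 1.47e-05 after knockdown, and −0.28, adjusted p = 0.00239 with imatinib).

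AURKA, the kinase of spindle poles, averaged 113 ± 3.22 CPM in siERRα, 59.6 ± 4.55 CPM in imatinib and 97 ± 1.54 CPM in siNC (SD, n = 3 each). Its fall with imatinib (−0.70, adjusted p = 3.72e-08) was larger than its rise after knockdown (0.21, adjusted p = 0.0137), and the rise was not called without siNC library 3 (adjusted p = 0.0815). CCNA2, cyclin A2 of S and G2 phase, averaged 177 ± 9.16 CPM in siERRα, 119 ± 3.65 CPM in imatinib and 144 ± 2.51 CPM in siNC (SD over 3 libraries). It rose by 0.30 after knockdown (adjusted p = 0.000548) and fell by 0.28 with imatinib (adjusted p = 0.00045). TPX2, which activates AURKA on the spindle, rose by 0.20 after knockdown (adjusted p = 0.0173) and fell by 0.19 with imatinib (adjusted p = 0.0145). Both TPX2 calls were fragile: the first was lost without siERRα library 2, siNC library 1 or siNC library 2 (adjusted p = 0.0545 to 0.0607), and the second without imatinib library 2, imatinib library 3 or siNC library 3 (adjusted p = 0.0529 to 0.0586).

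A further 8 mitotic members rose after knockdown and were not called lower with imatinib. BIRC5, which encodes survivin of the chromosomal passenger complex, was at 311, 322 and 329 CPM in siERRα, 274, 281 and 291 CPM in imatinib and 254, 264 and 251 CPM in siNC libraries. It was higher in every siERRα library than in any other (0.32, adjusted p = 0.000117), and its small rise with imatinib (0.14, adjusted p = 0.0384) lost its call under 6 alternatives, including without imatinib library 2 or 3 or siNC library 1 or 3 (adjusted p = 0.0603 to 0.146). MYBL2, the factor that works with MuvB, rose to 415 ± 12.7 CPM in siERRα, beside 345 ± 30.3 CPM in imatinib and 342 ± 9.94 CPM in siNC (SD, n = 3 each), with a log2 fold change of 0.28 after knockdown (adjusted p = 0.00232). CCNB2, a second B-type cyclin, rose by 0.24 (adjusted p = 0.00409; −0.11 with imatinib), and CDC25C, a CDK1 phosphatase, rose by 0.28 (adjusted p = 0.00913; 0.12 with imatinib). KIF23, a motor of the cytokinetic midzone, rose by 0.26 (adjusted p = 0.00592; −0.12 with imatinib).

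Of those 8, the remaining 3 had calls that 1 library could end. BUB1, a kinase of the spindle checkpoint, rose by 0.22 (adjusted p = 0.0259), but not without siERRα library 2, siNC library 1 or siNC library 3 (adjusted p = 0.075 to 0.116). KIF11, the motor that pushes spindle poles apart, rose by 0.23 (adjusted p = 0.0349) and was at 149, 183 and 143 CPM in siERRα, 139, 132 and 129.8 CPM in imatinib and 139.8, 126 and 139 CPM in siNC libraries. Its highest value was siERRα library 2, which stood apart within its group, and its call was lost under 5 alternatives, including without that library, siNC library 2 or siNC library 3 (adjusted p = 0.0536 to 0.191). AURKB, the kinase of the passenger complex, overlapped between siERRα (124, 107 and 129 CPM) and siNC (95.2, 114 and 102 CPM), and its call (0.21, adjusted p = 0.0478) was lost under 11 alternatives, in which any library but siERRα library 2 or siNC library 2 was left out or another fit was used (adjusted p = 0.0519 to 0.264). With imatinib their values were −0.08 for BUB1, −0.01 for KIF11 and −0.04 for AURKB. Without siERRα library 2, 11 mitotic members were higher after knockdown, and TOP2A was then called lower (adjusted p = 0.00709).

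CDK1, the kinase that the B-type cyclins activate, rose with imatinib while its cyclin CCNB1 fell. It was at 221, 270.4 and 246 CPM in siERRα, 294, 321 and 302 CPM in imatinib and 256, 227 and 241 CPM in siNC libraries. All imatinib libraries were above the others (0.34, SE 0.0682, adjusted p = 0.000498), and the siERRα and siNC libraries overlapped (0.03, adjusted p = 0.827).

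A further 7 mitotic members were not called in either contrast with all libraries in the fit. FOXM1, the transcription factor of G2 genes, had 0.15 after knockdown and −0.09 with imatinib, but was called lower with imatinib once imatinib library 1 was left out (−0.17, adjusted p = 0.0443). TTK, a checkpoint kinase, had −0.03 and 0.03 in the same order of contrasts. BUB1B, a checkpoint protein, had −0.08 and −0.10, and NDC80, which holds microtubules at the kinetochore, 0.17 and 0.02. Without siERRα library 1, NDC80 was called higher after knockdown (0.25, adjusted p = 0.0467). TOP2A, which untangles sister chromatids, had −0.14 and −0.07 for the same contrasts. MKI67, the proliferation marker Ki-67 that coats mitotic chromosomes, scattered most: 70.3, 70.3 and 61.8 CPM in siERRα, 74.1, 33.1 and 46.9 CPM in imatinib and 47.4, 45.7 and 58.3 CPM in siNC libraries. The imatinib libraries spanned all the others, and the fold changes had wide errors (0.42, SE 0.26, adjusted p = 0.311 after knockdown, and 0.02, SE 0.263, adjusted p = 0.955 with imatinib).

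CENPF, a kinetochore protein, scattered in the same way, at 31.8, 34.7 and 25.7 CPM in siERRα, 25.5, 12.5 and 13.6 CPM in imatinib and 24.7, 21.8 and 25.2 CPM in siNC libraries. Imatinib library 1 was the highest of its group for both genes. In the 6 siERRα and siNC libraries alone, and without imatinib library 1, MKI67 was called higher after knockdown (adjusted p = 0.00353 to 0.0151) and so was CENPF (adjusted p = 0.0114 to 0.0161). Without imatinib library 1, and in limma-voom, CENPF was also called lower with imatinib (adjusted p = 2.16e-05 to 0.0201). The long kinetochore motor gene CENPE was sparse, at 5.03, 5.62 and 4.12 CPM in siERRα, 3.09, 1.91 and 2.16 CPM in imatinib and 4.25, 2.72 and 4.19 CPM in siNC libraries. It fell with imatinib (−0.65, SE 0.195, adjusted p = 0.0116), although imatinib library 1 overlapped siNC, and the call was lost without imatinib library 2 or 3 or siNC library 1 or 3 (adjusted p = 0.0534 to 0.0641). After knockdown it was at 0.40 (adjusted p = 0.113), and was called with no filter on low counts (adjusted p = 0.0388). MKI67, CENPF and CENPE have the longest annotated exon sequence of the members, 12.8, 12.5 and 9.93 kb. Imatinib library 1 was 0.065 above its group mean in the difference between long and short genes, and the part of that difference in these 3 genes was not tested.

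Set directly against each other, siERRα and imatinib libraries differed in most members. Of the 27 mitotic members, 20 were higher in siERRα (beside 25.6% of all genes tested) and 1, CDK1, was lower, with a median log2 fold change of 0.35. Of the 24 S-phase members, 17 were lower in siERRα (beside 26.6% of all genes tested) and 1 was higher, with a median of −0.42. PLK1 was 2.12-fold higher in siERRα than in imatinib (log2 fold change 1.08, adjusted p = 7.89e-10), CCNB1 2.02-fold higher (1.01, adjusted p = 3.67e-11) and KIF20A 1.97-fold higher (0.98, adjusted p = 4.73e-11). E2F2 was at 0.526 of its imatinib level in siERRα (−0.93, adjusted p = 1.37e-09), MCM5 at 0.534 (−0.91, adjusted p = 9.53e-10) and MCM3 at 0.538 (−0.89, adjusted p = 5.48e-11). The S-phase genes without a call between the treatments were CCNE1, CCNE2, E2F7, MCM10, RRM1 and RRM2, with values of −0.11 to 0.06. Without siERRα library 2, RRM1 was called lower in siERRα (−0.19, adjusted p = 0.00465), as was TOP2A (−0.17, adjusted p = 0.0319). MKI67 was called higher in siERRα without imatinib library 1 (0.75, adjusted p = 0.000239) and in limma-voom (0.47, adjusted p = 0.033), and NDC80 without siERRα library 1 (0.23, adjusted p = 0.0307). CDC25A was the S-phase gene higher in siERRα (0.15, adjusted p = 0.0316), and that call was lost under 8 alternatives, among them without siERRα library 2 or 3, imatinib library 2 or 3, or siNC library 3 (adjusted p = 0.0536 to 0.119). CENPF (0.84, adjusted p = 0.0264) lost its call under 8 alternatives as well, which took in each siNC library but library 3 and each treated library but siERRα library 3 and imatinib library 1 (adjusted p = 0.0562 to 0.112). Calls of AURKB (without siERRα library 3 or imatinib library 2), KIF11 (without siERRα library 2 or imatinib library 3), FOXM1 (without imatinib library 2) and CDC6 (without siERRα library 1 or imatinib library 3) were also lost, that of CDC6 also with no filter on low counts, at adjusted p = 0.0508 to 0.108.

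The 3 groups lay apart, library by library, in the mean level of the mitotic members. In that of the S-phase members, siERRα and siNC libraries overlapped. The members were chosen with earlier results of these data known, so the separation may partly follow from that choice. As a description with no test, the S-phase score, the mean log2 difference from siNC over the 24 genes, was −0.001, 0.038 and 0.048 in siERRα, 0.438, 0.394 and 0.453 in imatinib and −0.017, 0.014 and 0.003 in siNC libraries. The mitotic score over the 27 genes was 0.182, 0.264 and 0.18 in siERRα, −0.15, −0.308 and −0.24 in imatinib and −0.005, −0.023 and 0.028 in siNC libraries. The imatinib libraries were apart from the rest in both scores, and the siERRα libraries in the mitotic score. The S-phase minus mitotic difference averaged −0.18 ± 0.047 in siERRα and 0.661 ± 0.0634 in imatinib (SD, n = 3 each), against a siNC SD of 0.032 around 0.

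**Figure D4:**
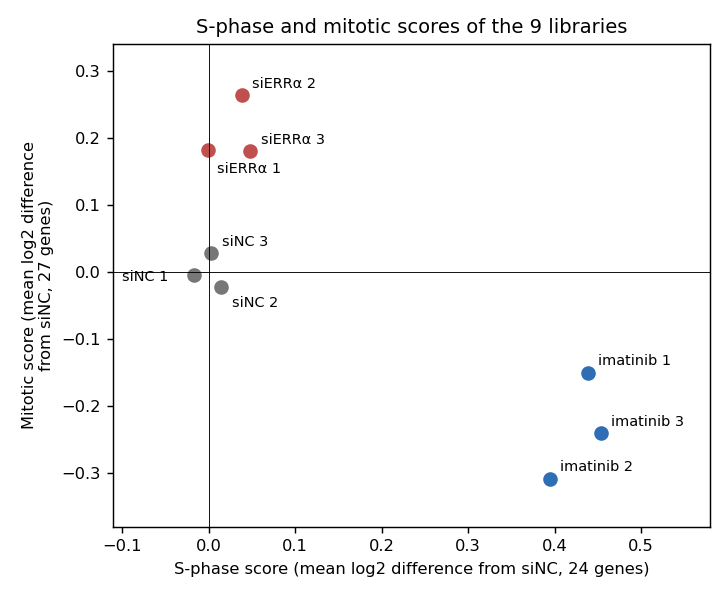
S-phase score (x axis) and mitotic score (y axis) of each library, as mean log2 differences from the siNC mean over 24 and 27 genes, for siERRα (red), imatinib (blue) and siNC (grey), with replicate numbers. Imatinib libraries lie at 0.394 to 0.453 on the x axis and below 0 on the y axis, and siERRα libraries at 0.18 to 0.264 on the y axis.

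CCNG2, cyclin G2, is expressed in cells that leave the cycle and is a known target of FOXO factors. It was at 22.7, 27.5 and 22.5 CPM in siERRα, 33.7, 43.2 and 33.2 CPM in imatinib and 24.4, 23.6 and 25.8 CPM in siNC libraries. It rose 1.49-fold in imatinib libraries, all of which were above the other 6 (0.58, SE 0.0981, adjusted p = 0.000105), and was at −0.02 after knockdown (adjusted p = 0.903).

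Genes of the same processes outside the 52 gave smaller median shifts, apart from replication genes after knockdown. Of 58 other replication genes, 37 rose and 2 fell with imatinib (63.8% higher, beside 21.4% of all genes tested), with a median of 0.23. After knockdown 8 rose and 7 fell, with a median of 0.05, and these shares (13.8% and 12.1%) were near those of all genes tested (11.4% and 12.6%). Of 63 other mitotic genes tested, 22 fell with imatinib (34.9%, beside 20.3% of all genes tested) and 12 rose (19.0%, near the 21.4% of all genes), with a median of −0.10. After knockdown 24 rose (38.1%, beside 11.4% of all genes tested) and 3 fell, with a median of 0.14. The mean log2 difference from siNC over these 63 genes was 0.078, 0.211 and 0.076 in the siERRα libraries, beside −0.022 to 0.013 in siNC libraries. It was thus highest in siERRα library 2, which stood apart within its group. The securin gene PTTG1 (−0.62), the centrosome kinase gene NEK2 (−0.61) and FAM83D (−0.45), which directs a kinase to the spindle, fell with imatinib. FAM83D rose after knockdown by 0.32 (adjusted p = 0.00019). The knockdown also lowered some genes of these lists by more than any member: CDCA8, a passenger complex subunit (−0.96, adjusted p = 1.01e-09), DSCC1, a subunit of a clamp loader (−0.90, adjusted p = 5.12e-08), UHRF1, which maintains DNA methylation (−0.69, adjusted p = 4.15e-07), and GINS1, the partner of GINS2 (−0.66, adjusted p = 5.92e-07).

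**Figure D5:**
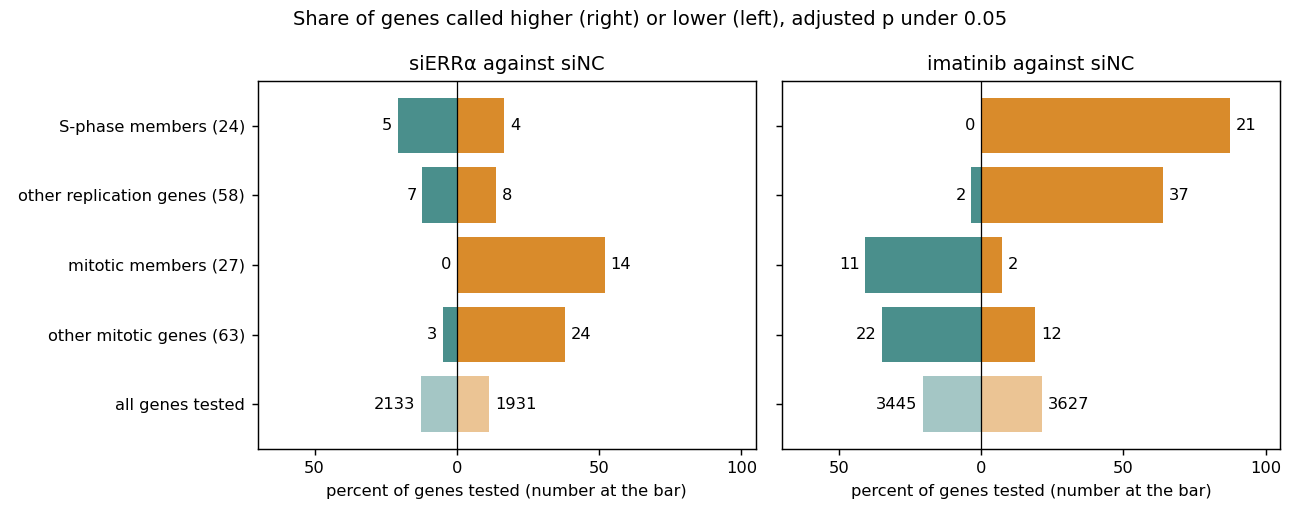
Percent of genes called higher (bars to the right) or lower (bars to the left) in siERRα against siNC (left panel) and imatinib against siNC (right panel), for the members, the other genes of the same processes and all genes tested. Numbers beside the bars count genes. With imatinib 21 of 24 S-phase members are called higher, and after knockdown 14 of 27 mitotic members are.

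Calls among G1 regulators, DREAM and MuvB subunits, FOXO targets and factors, and p53 targets went in both directions in each contrast. The shares of all genes tested to set beside these short lists are 11.4% higher and 12.6% lower after knockdown, and 21.4% higher and 20.3% lower with imatinib. Of 14 G1 regulators, 2 rose (14.3%) and 5 fell (35.7%) after knockdown, and 3 rose and 3 fell with imatinib (21.4% each, at the level of all genes). CCND1, cyclin D1, was lower in both (−0.51, adjusted p = 7.89e-07 after knockdown, and −0.59, adjusted p = 3.84e-08 with imatinib), and CDKN1B, the CDK inhibitor p27, was higher in both (0.27 each, adjusted p = 0.00178 and 0.000896). CDK6 fell after knockdown (−0.95, adjusted p = 2.43e-08) and was at 0.14 with imatinib (adjusted p = 0.133). CDKN2C, the inhibitor p18, rose with imatinib (0.49, adjusted p = 1.09e-06), and CDKN1A, the inhibitor p21, fell (−0.69, adjusted p = 5e-06). Of 12 DREAM and MuvB subunits, 4 rose (33.3%) and 1 fell (8.33%) after knockdown, and 3 rose and 2 fell (16.7%) with imatinib, near the shares of all genes in the drug contrast. RBL2, the pocket protein p130, fell after knockdown (−0.51, adjusted p = 1.36e-05), and E2F5 rose there (0.45) and fell with imatinib (−0.63). Of 13 FOXO targets and factors tested, 8 rose (61.5%) and 2 fell (15.4%) with imatinib, and 5 rose (38.5%) and 3 fell (23.1%) after knockdown. With imatinib, GADD45A had the smallest adjusted p of this list and fell (−1.36, adjusted p = 1.37e-09). BCL2L11, the death gene BIM, rose by 0.86 with imatinib (adjusted p = 4.86e-06). Of 17 p53 targets, 4 rose (23.5%) and 6 fell (35.3%) with imatinib, and 5 rose (29.4%) and 4 fell (23.5%) after knockdown, GDF15 falling most with imatinib (−3.30, adjusted p = 3.2e-14). Of 8 GIST markers, 6 rose (75.0%) and 2 fell with imatinib, and 3 rose (37.5%) and 0 fell after knockdown. Of 8 markers of other cell types, 2 had enough counts to test, KRT8 (−0.42 with imatinib, adjusted p = 0.00346) and VWF (0.14, adjusted p = 0.732), and neither was called after knockdown.

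Per kilobase of annotated exon, the members spanned a wide range of levels. In siNC, TK1 was highest at 369.8 CPM per kb, followed by PCNA at 159 and MCM7 at 147, and the lowest were CENPF at 1.92 and CENPE at 0.375 CPM per kb. The order changed with treatment: MCM3 was at 71.4 CPM per kb in siERRα, 133 in imatinib and 91.1 in siNC, and CCNB1 at 106, 52.4 and 103 CPM per kb in the same order of groups. In imatinib libraries MCM3 was above CCNB1, and in siERRα and siNC below it. Exon length here is the union of all annotated exons, which can overstate the length of the transcript that the cells make.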

How the data were processed

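Bulk RNA-seq of 9 T1 libraries was used, 3 per group, grouped by the treatment label. The deposited table holds raw counts per gene, which the authors made by aligning reads to GRCh38 with STAR 2.7.3a and counting with featureCounts 2.0.1, per the submitters' processing notes; these notes give neither strand nor annotation settings. Genes were kept by filterByExpr (minimum count 10, total 15), scaled by TMM, and tested with edgeR 4.0.16 (R 4.3.3; robust quasi-likelihood F-test, 9 libraries in a single fit, group as the sole term, Benjamini-Hochberg over 16976 genes, threshold 0.05). SE is the log2 fold change divided by the square root of F. Alternatives used DESeq2 1.42.0, limma 3.58.1, other filters, a replicate block and each library left out. Scores used a prior count of 2. Gene positions and exon lengths came from GENCODE 44, promoter letters from RefSeq, with the first window listed for each gene. Depth was 37527236 to 49363002 counts. All members and ESRRA are named, and up to 4 genes of each other list by smallest p. The members and lists were chosen with earlier results of these data known. The fits were tested on simulated data.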

Additional observations from a re-analysis of the deposited data

How the results depend on the processing

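No member reversed direction in a called contrast under the alternatives that were run, which comprised other scaling (DESeq2 size factors), the DESeq2 and limma-voom tests, other filters, the 6 libraries of a contrast alone, a replicate block and each library left out. The size limit changed counts most. When a call also needed a log2 change of 0.5 or more in size, the knockdown against siNC gave 2 S-phase members higher and 0 lower and 2 mitotic members higher; imatinib against siNC gave 12 S-phase members higher, and 0 mitotic members higher and 5 lower; and siERRα against imatinib gave 0 S-phase members higher and 10 lower, and 9 mitotic members higher and 0 lower. With no filter on low counts, and with the replicate block, 1 mitotic member was higher with imatinib and 0 S-phase members were higher in siERRα than in imatinib, a count that was also 0 in the 6 libraries compared alone. The S-phase score of siERRα minus siNC was −0.003 as a median over members, against a mean of 0.028. Leaving out each library in turn, mitotic members higher after knockdown numbered 9 to 15 and lower 0 to 1, mitotic members higher with imatinib 1 to 2, S-phase members higher in siERRα than in imatinib 0 to 1, and mitotic members lower in that contrast 1 to 2. In the other counts these omissions gave 18 to 22 S-phase members higher and 9 to 13 mitotic members lower with imatinib. Replicate numbers are those in the headers of the count columns, and no source says whether they pair libraries across groups. The correlations of same-numbered libraries from different groups ran from −0.1 to 0.147, and those of differently numbered libraries from −0.133 to 0.093. With 3 libraries per group, these values cannot decide whether libraries were paired. The cause of these changes was not tested, and 3 libraries per group limit changes of the size seen after knockdown.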
